A study of Homo sapiens with 6 samples.

Results

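A set of 10 genes that act downstream of the transcription factors ATF4 and CHOP was followed through RNA-seq of prostate cancer cells treated with inhibitors of the chaperone HSP70. They were ASNS, CTH, CHAC1, DDIT4, SESN2, TRIB3, PPP1R15A, NUPR1, CEBPB and VLDLR, a list drawn up by gene name with earlier results of these data known, so that none of their changes is independent evidence of a direction. All 10 were found among the 60658 Ensembl identifiers of the tables, 57047 of which had a symbol in GENCODE 29. The study treated 2 enzalutamide-resistant lines for 48 h with DMSO as vehicle, 10 µM apoptozole (APO) or 10 µM VER155008 (VER), and made 1 library for each of the 6 conditions. C4-2B MDVR cells, a derivative of the LNCaP-lineage line C4-2B selected in the antiandrogen enzalutamide, were maintained with 20 µM enzalutamide, and whether it was in the medium during treatment is not given in the sources used here. CWR22Rv1 cells, a castration-resistant line from a prostate cancer xenograft, were maintained without it. The titles call the former line C4-2B MDVR, whereas other labels of the same samples give LNCaP-C4-2B as the source and parental as the cell type. With 1 library per condition there was no replicate, so no difference within a line has a replicate check, an error or a p-value, and the 1 test that was made takes the lines as each other's replicates. In bulk RNA, less RNA of a gene per cell and fewer cells that express it cannot be told apart.

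When unfolded proteins gather in the endoplasmic reticulum, or amino acids or heme run short, kinases such as PERK and GCN2 phosphorylate the translation factor eIF2α. General translation then falls while the messenger of ATF4 is translated more, and ATF4 drives genes of amino acid supply, redox control and stress adaptation, among them DDIT3, which encodes the transcription factor CHOP. ATF4 and CHOP together also drive genes that restrain the pathway, such as the phosphatase subunit PPP1R15A and the pseudokinase TRIB3.

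ATF4 pairs with C/EBP proteins on a composite element, CARE, written here as TGATGNAA. RefSeq promoter windows of GRCh38.p14, covering the 250 bases before an annotated start and the 50 after it, were found for 9 of the 10 genes and not for NUPR1. They were searched on both strands for CARE, for the cAMP response element CRE (TGACGTCA, which reads the same on both strands) and for the ATF6 element UPRE (TGACGTGG). CARE was found in ASNS and CHAC1, that is in 2 of 9 genes (22.2%), against 12 of 37 (32.4%) of other listed ATF4-CHOP targets and 4.46% of the 27305 genes with a window. CRE was found in PPP1R15A alone among the 9 (11.1%, against 2.25% of all genes), and UPRE in 0 of 9 (against 0.927%). The 250 bases before the start of these 3 genes are shown because they hold the matches, with the matching letters in capitals.
ASNS, chr7:97872409-97872658, minus strand: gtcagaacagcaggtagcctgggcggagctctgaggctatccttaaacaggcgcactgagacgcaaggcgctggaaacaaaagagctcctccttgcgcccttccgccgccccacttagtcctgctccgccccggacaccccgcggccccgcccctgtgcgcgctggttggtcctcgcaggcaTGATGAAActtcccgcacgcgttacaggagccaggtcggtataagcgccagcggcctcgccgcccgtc
CHAC1, chr15:40953221-40953470, plus strand: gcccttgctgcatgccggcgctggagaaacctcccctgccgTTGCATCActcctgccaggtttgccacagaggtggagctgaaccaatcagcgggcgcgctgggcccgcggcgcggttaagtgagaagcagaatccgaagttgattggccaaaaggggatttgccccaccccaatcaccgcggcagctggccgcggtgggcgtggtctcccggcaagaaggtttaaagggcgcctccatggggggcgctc
PPP1R15A, chr19:48872171-48872420, plus strand: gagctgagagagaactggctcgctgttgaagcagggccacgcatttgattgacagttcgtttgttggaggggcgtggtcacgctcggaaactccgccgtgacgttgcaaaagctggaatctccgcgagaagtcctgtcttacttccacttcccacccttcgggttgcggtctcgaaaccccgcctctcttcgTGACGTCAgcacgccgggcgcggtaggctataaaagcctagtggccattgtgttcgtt
The capitals mark CARE from base -68 to base -61 before the start in ASNS, CARE on the opposite strand from base -209 to base -202 in CHAC1, and CRE from base -58 to base -51 in PPP1R15A. ASNS has another RefSeq start nearby, whose upstream bases held none of these letters. The GENCODE 29 bounds given below for these genes start farther upstream, so that they take in the whole CHAC1 stretch and part of the other 2. A match is a stretch of letters and was not tested as a binding site.

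The values are FPKM, fragments scaled to transcript length and library size, and levels of different genes are compared only on this per-length scale. Changes are differences of log2(FPKM + 0.1) from library to library, and 1 on this scale is a 2-fold difference. A gene entered the comparisons of a line if any of its 3 libraries had more than 0.1 FPKM, which left 20122 genes for C4-2B MDVR and 21608 for CWR22Rv1, and all 10 genes passed in both. The words rose and fell are kept for changes of more than 1.2-fold, the threshold of the study, or 2-fold where that is said. The study gives an approximate number of reads per sample, and the depth of each library is not given. Low FPKM values placed the relative depth of the other libraries between 1.14 and 1.63 times that of the DMSO library of C4-2B MDVR. Mitochondrial genes took 14.8% to 16.4% of the summed FPKM in C4-2B MDVR cells, and in CWR22Rv1 cells 25.7% under DMSO, 10.4% under APO and 25.7% under VER. The part of this in the changes with APO was not tested, and the counts of the 10 genes past 2-fold against DMSO with APO stayed 10 and 8 when mitochondrial genes were left out of the scaling. Each of 10 prostate luminal markers lay above 1 FPKM in every library, but several were lower with the inhibitors. In C4-2B MDVR cells 6 fell more than 2-fold with APO and 3 with VER, where 13.3% of all genes did with either. In CWR22Rv1 cells 3 fell by that much with APO and 0 with VER, against 16.8% and 8.92%. Of the markers of other cells, KRT5, TP63 and PECAM1 were listed at 0 throughout, and 5 fibroblast markers summed to 6.997 to 11.2 FPKM in the C4-2B MDVR libraries and 18.3 to 31.98 FPKM in those of CWR22Rv1, where LUM held 13.1 to 26.2 FPKM. None of 4 endothelial and 3 basal markers passed 1 FPKM in any library, and 5 leukocyte markers summed to 0.594 to 4.32 FPKM. Their part in the results was not tested.

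All 10 genes were above their DMSO level after APO in both lines and after VER in the C4-2B MDVR line, whereas for VER in CWR22Rv1 cells the change was the smallest of the 4 contrasts for 9 of the 10 genes and CTH was not higher. In C4-2B MDVR cells all 10 rose more than 1.2-fold with APO, where 37.7% of all genes did, and likewise under VER, where 35.6% did. All 10 also rose more than 2-fold, against a background of 15.4% with APO and 14.4% with VER, while 13.3% of genes fell more than 2-fold with either inhibitor and none of the 10 did. In CWR22Rv1 cells 10 rose more than 1.2-fold with APO (35.6% of all genes) and 9 with VER (32.1%). More than 2-fold, 8 rose with APO and 5 with VER, against 13.8% and 10.8% of all genes. None of the 10 fell more than 2-fold there, as 16.8% of genes did with APO and 8.92% with VER. The median log2 fold change of the 10 genes was 3.23 (APO) and 2.74 (VER) in the C4-2B MDVR line and 2.62 and 0.99 in CWR22Rv1 cells. The median over all compared genes lay between -0.01 and 0.00 in the 4 contrasts. APO and VER were compared with the same DMSO library of each line, so an error in that library moves both contrasts together.

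The treatments were also fitted over both lines together, with limma on the same log2 values and the cell line as a block, an alternative chosen after seeing the data. Its residual, with 2 degrees of freedom, is the difference between the lines in their response, so a difference between lines cannot be tested in it. The SEs and p-values also use variance that limma shares across all genes, so they do not rest on that difference alone. Of 18059 genes above 0.1 FPKM in at least 1 library of each line, 1.4% were higher with APO at a Benjamini-Hochberg adjusted p under 0.05, and 7 of the 10 were. SESN2 (log2 fold change 3.22 ± 0.30, SE, adjusted p = 0.0232) and CHAC1 (3.81 ± 0.42, adjusted p = 0.0295) were among them, with ASNS, TRIB3, PPP1R15A, NUPR1 and CEBPB. DDIT4 (adjusted p = 0.0563), CTH (0.164) and VLDLR (0.184) did not pass. With VER none of the 10 passed (adjusted p 0.113 to 0.419), although 8 were higher at an unadjusted p under 0.05, as 8.44% of all genes were. Between VER and APO none passed either (0.265 to 0.932), and 4 of the 10 were lower with VER at an unadjusted p under 0.05, where 6.68% of all genes were. The 7 calls with APO came to 0 without the mean-variance trend of limma and to 1 with a pseudocount of 0.01. They came to 3 without the VER library of C4-2B MDVR, to 4 without that of CWR22Rv1 and to 0 without any other library, each with 1 residual degree of freedom. With VER 4 genes passed after rescaling to TPM.

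The study displays CHAC1, ASNS and DDIT4 among genes altered in these C4-2B MDVR libraries. Of the 7 other genes, 7 rose more than 2-fold with each inhibitor in C4-2B MDVR cells, 5 with APO in CWR22Rv1 cells and 3 with VER. The median log2 fold changes of the 7 genes were 2.95, 2.43, 2.81 and 0.92 in the same order.

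**Figure D1:**
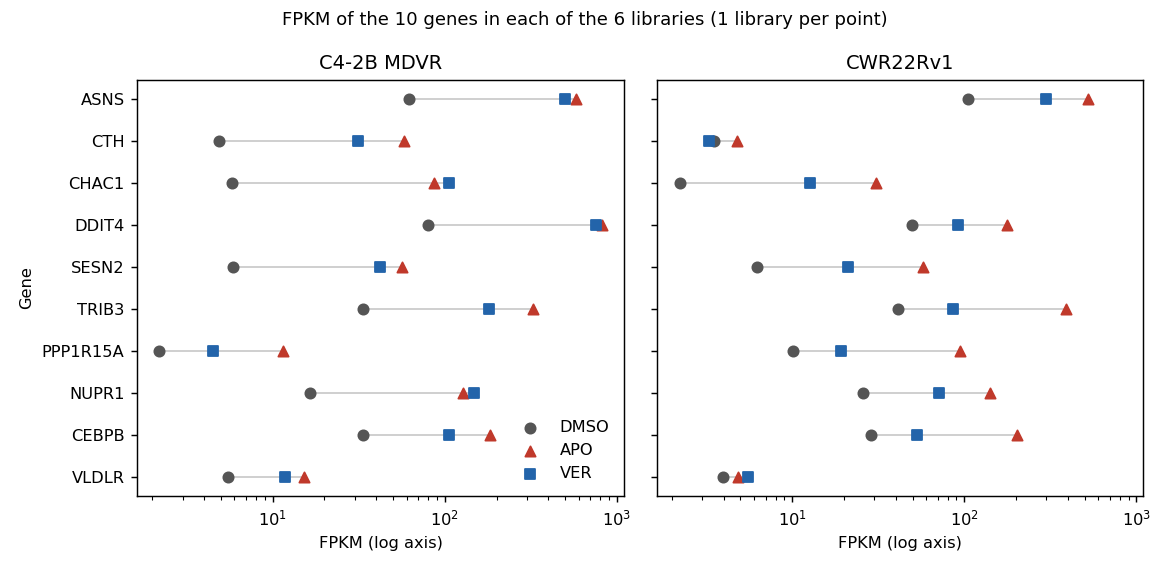
FPKM of the 10 genes on a log axis in C4-2B MDVR (left) and CWR22Rv1 cells (right), with 1 point per library and a grey line from the lowest to the highest of the 3. DMSO is the lowest point for all 10 genes in C4-2B MDVR cells and for 9 of 10 in CWR22Rv1 cells, the exception being CTH.

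**Figure D2:**
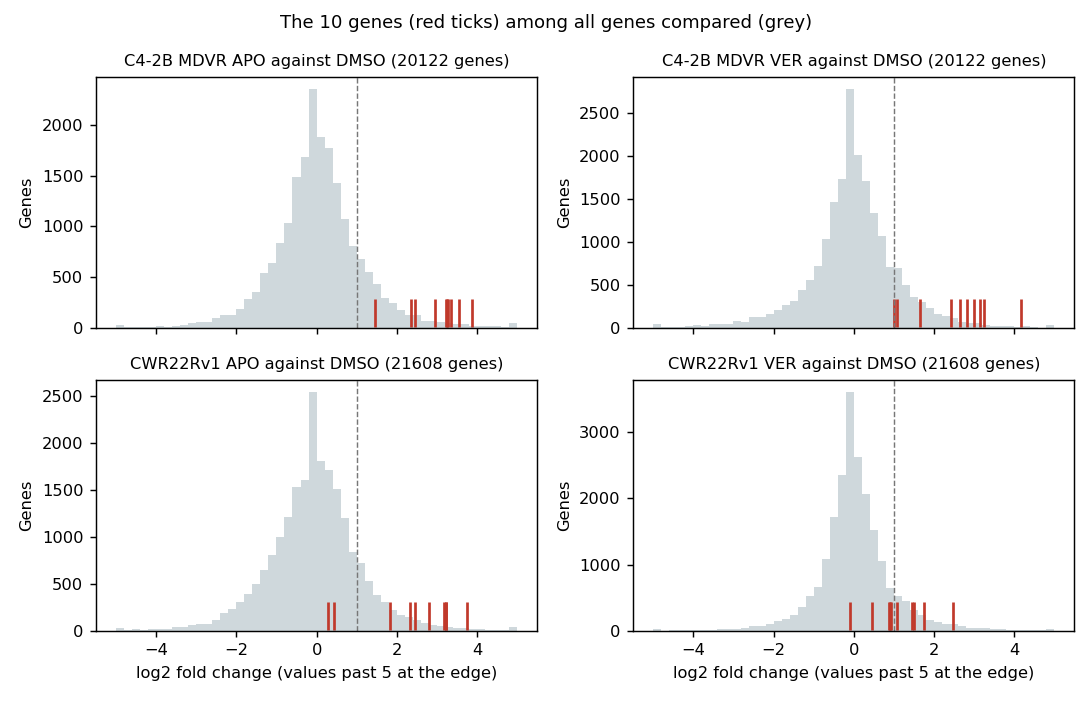
Distribution of log2 fold changes over all compared genes (grey bars, number of genes per 0.2 on the log2 scale) with the 10 genes as red ticks and a dashed line at 2-fold, 1 panel per contrast. The ticks lie to the right of the line in both C4-2B MDVR panels, 8 of 10 do with APO in CWR22Rv1 cells and 5 of 10 with VER.

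ASNS and CTH encode enzymes of amino acid supply. ASNS, asparagine synthetase (ENSG00000070669, GRCh38 chromosome 7 from 97852118 to 97872542), was at 61.6 FPKM with DMSO, 575 after APO and 496 after VER in the C4-2B MDVR line, and at 105, 525 and 298 FPKM in CWR22Rv1 cells. Both inhibitor libraries were well above DMSO in each line, and in CWR22Rv1 cells VER lay between DMSO and APO. It changed by 3.22 (APO) and 3.01 (VER) on the log2 scale in the C4-2B MDVR line and 2.33 and 1.51 in CWR22Rv1 cells. ASNS was the most abundant of the 10 genes per length in all 3 CWR22Rv1 libraries and came after DDIT4 in all 3 of C4-2B MDVR. Its window was the one with CARE closest to the start.

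CTH, cystathionine gamma-lyase, which makes cysteine from cystathionine (ENSG00000116761, chromosome 1 from 70411218 to 70439851), was at 4.87 FPKM with DMSO, 57.7 after APO and 31.2 after VER in the C4-2B MDVR line. In CWR22Rv1 cells it was at 3.54, 4.78 and 3.28 FPKM. The DMSO levels of the lines were close, but inhibitor and DMSO levels were far apart in the former line only. On the log2 scale CTH changed by 3.54 (APO) and 2.65 (VER) in the C4-2B MDVR line, against 0.42 and -0.11 in CWR22Rv1 cells, the last below 1.2-fold. The difference between the lines has no replicate check. With APO in C4-2B MDVR cells only CHAC1 changed more than CTH, and with VER in CWR22Rv1 cells no other of the 10 genes was below DMSO.

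CHAC1, which degrades glutathione and is a common marker of ATF4 and CHOP activity (ENSG00000128965, chromosome 15 from 40952962 to 40956519), was at 5.80 FPKM with DMSO, 86.5 after APO and 106 after VER in the C4-2B MDVR line and at 2.22, 30.8 and 12.8 FPKM in CWR22Rv1 cells. It was low with DMSO in both lines and high with both inhibitors. Its log2 fold changes of 3.88 and 4.17 in C4-2B MDVR cells and 3.74 and 2.47 in CWR22Rv1 cells were the largest of the 10 genes in each contrast. The matching letters of CARE in its window lay farther from the start than those of ASNS.

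DDIT4 and SESN2 restrain the growth kinase complex mTORC1. DDIT4, also called REDD1 (ENSG00000168209, chromosome 10 from 72273920 to 72276036), was at 79.5 FPKM with DMSO, 817 after APO and 754 after VER in the C4-2B MDVR line, the highest of the 10 genes in each of these libraries. In CWR22Rv1 cells it was at 49.4, 177 and 92.0 FPKM. The inhibitor libraries were close to each other in the former line and apart in the latter. DDIT4 thus had log2 fold changes of 3.36 and 3.24 in C4-2B MDVR cells and 1.84 and 0.90 in CWR22Rv1 cells. An antisense gene, DDIT4-AS1, overlaps 1066 bases of DDIT4 and stayed at or below 0.830 FPKM in the 6 libraries.

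SESN2, sestrin 2, a leucine-binding inhibitor of mTORC1 signalling (ENSG00000130766, chromosome 1 from 28259527 to 28282491), was at 5.88 FPKM with DMSO, 56.5 after APO and 42.2 after VER in the C4-2B MDVR line and at 6.25, 57.8 and 21.1 FPKM in CWR22Rv1 cells. DMSO and APO levels were close between the lines, and the VER levels differed. Its log2 fold changes were 3.24 and 2.82 in C4-2B MDVR cells and 3.19 and 1.74 in CWR22Rv1 cells.

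TRIB3, a pseudokinase that binds ATF4 and CHOP and damps their activity (ENSG00000101255, chromosome 20 from 362835 to 397559), was at 33.3 FPKM with DMSO, 324 after APO and 180 after VER in the C4-2B MDVR line. In CWR22Rv1 cells it was at 40.9, 387 and 85.7 FPKM. APO was the highest library in each line, and the VER library of CWR22Rv1 lay nearer to DMSO than to APO. For TRIB3 the log2 fold changes were 3.28 and 2.43 in C4-2B MDVR cells and 3.24 and 1.06 in CWR22Rv1 cells, where the value with VER was just past 2-fold.

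PPP1R15A, or GADD34, recruits protein phosphatase 1 to eIF2α and thereby reopens translation (ENSG00000087074, chromosome 19 from 48872392 to 48876057). It was at 2.20 FPKM with DMSO, 11.5 after APO and 4.52 after VER in the C4-2B MDVR line, the lowest of the 10 genes in each of these libraries, and at 10.1, 94.5 and 19.1 FPKM in CWR22Rv1 cells. CWR22Rv1 cells had more of it in each condition, and in both lines APO was highest. The log2 fold changes were 2.34 and 1.01 in C4-2B MDVR cells and 3.21 and 0.92 in CWR22Rv1 cells. Its window was the one with CRE.

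NUPR1, a small stress-induced chromatin protein (ENSG00000176046, chromosome 16 from 28532708 to 28539174), was at 16.5 FPKM with DMSO, 128 after APO and 148 after VER in the C4-2B MDVR line and at 25.8, 141 and 70.9 FPKM in CWR22Rv1 cells. VER was above APO in the former line and below it in the latter. NUPR1 had log2 fold changes of 2.95 and 3.15 in C4-2B MDVR cells and 2.44 and 1.45 in CWR22Rv1 cells.

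CEBPB, a bZIP transcription factor that can pair with ATF4 and CHOP (ENSG00000172216, chromosome 20 from 50190734 to 50192689), was at 33.3 FPKM with DMSO, 184 after APO and 105 after VER in the C4-2B MDVR line and at 28.8, 202 and 52.9 FPKM in CWR22Rv1 cells. The order DMSO, VER, APO was the same in both lines. The log2 fold changes were 2.46 and 1.66 in C4-2B MDVR cells and 2.81 and 0.88 in CWR22Rv1 cells. CEBPB-AS1 overlaps 765 bases of it on the opposite strand and was at 0.181 to 0.523 FPKM.

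VLDLR, a lipoprotein receptor (ENSG00000147852, chromosome 9 from 2621834 to 2660053), changed least of the 10 with APO. It was at 5.54 FPKM with DMSO, 15.3 after APO and 11.9 after VER in the C4-2B MDVR line and at 3.99, 4.87 and 5.54 FPKM in CWR22Rv1 cells. The 3 CWR22Rv1 libraries lay close together. The log2 fold changes were 1.45 and 1.08 in C4-2B MDVR cells and 0.28 and 0.46 in CWR22Rv1 cells. The value of 0.28 was just past 1.2-fold, and it was 0.23 with a pseudocount of 1 and 0.13 with mitochondrial genes left out of the scaling. VLDLR-AS1, which overlaps 21526 bases of VLDLR on the opposite strand, was at 0.343 FPKM with DMSO, 4.09 after APO and 3.44 after VER in the C4-2B MDVR line and at 0.0729, 0.971 and 0.440 FPKM in CWR22Rv1 cells. The labels describe a strand-marking library kit, but whether the counting used strand is not given in the sources used here, so reads of these antisense pairs may not have been told apart.

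**Figure D3:**
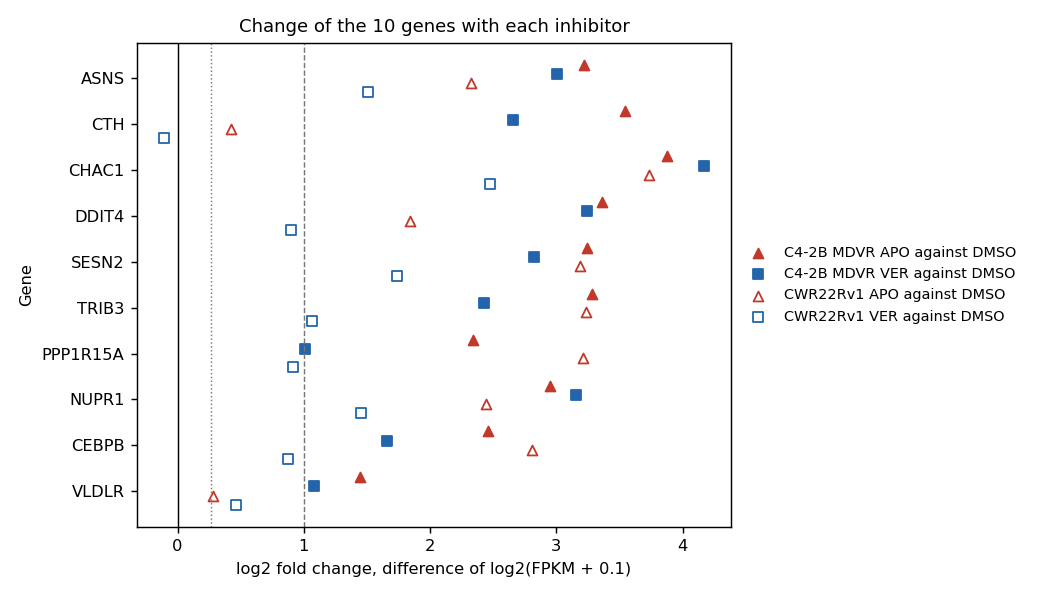
Log2 fold change of each of the 10 genes against DMSO, with triangles for APO and squares for VER, filled for C4-2B MDVR and open for CWR22Rv1, and with lines at no change (solid), 1.2-fold (dotted) and 2-fold (dashed). The open squares, VER in CWR22Rv1 cells, lie farthest left for 9 of the 10 genes, and CTH shows the widest gap between the lines.

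The inhibitors were given at the same dose for the same time, so VER was also set directly against APO. In CWR22Rv1 cells 9 of the 10 genes were lower with VER than with APO, 5 of them more than 2-fold, where 10.5% of all genes were lower and 15.6% higher by more than 2-fold. The median log2 difference of the 10 genes was -1.13, against 0.0 over all compared genes. The 5 genes were PPP1R15A (-2.30), TRIB3 (-2.17), CEBPB (-1.93), SESN2 (-1.45) and CHAC1 (-1.27). VLDLR was at 0.18. Under 1 or more of the other scalings up to 7 genes lay past 2-fold. In C4-2B MDVR cells 8 of 10 genes were lower with VER, with a median of -0.39, against -0.02 over all compared genes. Only PPP1R15A was lower by more than 2-fold (-1.33), where 10.5% of all genes were lower and 8.68% higher by that much. CHAC1 (0.29) and NUPR1 (0.21) were higher with VER in this line. DDIT4 differed by -0.12, and this turned to 0.06 under another scaling.

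Most of a list of 18 targets of p53 were instead higher with VER than with APO. With VER 16 of them rose more than 2-fold in C4-2B MDVR cells and 14 in CWR22Rv1 cells, against 14.4% and 10.8% of all genes. With APO 5 and 6 did, against 15.4% and 13.8%, the 5 coming to 3 with a pseudocount of 1. Compared directly, 13 of 18 were more than 2-fold higher with VER than with APO in C4-2B MDVR cells (median 1.499), against 8.68% of all genes. In CWR22Rv1 cells 6 were (median 0.77), against 15.6%, and none was lower by that much in either line. GADD45A (-0.53), TNFRSF10B (-0.52) and BBC3 (-0.23) were lower with VER in CWR22Rv1 cells. In C4-2B MDVR cells only TNFRSF10B (-0.38) was lower. TNFRSF10B and BBC3 are also in the list of other ATF4-CHOP targets. CDKN1A, which encodes the cell cycle inhibitor p21, was at 54.5 FPKM with DMSO, 232 after APO and 855 after VER in the C4-2B MDVR line and at 41.3, 172 and 359 FPKM in CWR22Rv1 cells. SESN2 and its relative SESN1 are both known targets of p53, but only SESN1 is among the 18. SESN2 was lower with VER than with APO in both lines, whereas SESN1 was higher.

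**Figure D4:**
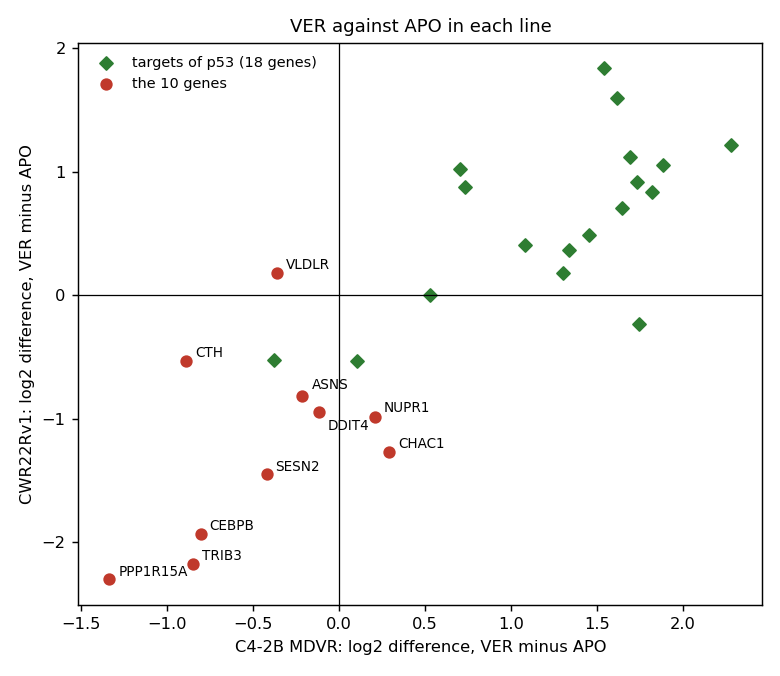
Log2 difference of VER minus APO in C4-2B MDVR (horizontal) and CWR22Rv1 cells (vertical) for the 10 genes (red circles) and 18 targets of p53 (green diamonds). The 10 genes lie below 0 on the vertical axis except VLDLR at 0.18, and PPP1R15A is the lowest on both axes.

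With DMSO alone 8 of the 10 genes differed by less than 2-fold between the lines. Of the 10, 1 was more than 2-fold higher in CWR22Rv1 than in C4-2B MDVR cells, PPP1R15A (log2 difference 2.15), and 1 more than 2-fold lower, CHAC1 (-1.35). Of the 20903 genes above 0.1 FPKM in either DMSO library, 27.2% were higher and 19.4% lower by that much. The other 8 genes differed by between -0.68 (DDIT4) and 0.76 (ASNS).

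The messengers of ATF4 and CHOP, the factors the set is named for, were higher as well. The study already reports ATF4 and ATF6 as raised by both inhibitors, among unfolded protein response genes in C4-2B MDVR cells. Their protein and activity were not measured in these libraries. ATF4 was at 246 FPKM with DMSO, 854 after APO and 812 after VER in the C4-2B MDVR line and at 263, 595 and 422 FPKM in CWR22Rv1 cells. DDIT3, which encodes CHOP, was at 18.5, 437 and 185 FPKM in C4-2B MDVR cells and at 49.3, 753 and 125 FPKM in CWR22Rv1 cells. Both had VER between DMSO and APO in each line. The log2 fold changes with VER in CWR22Rv1 cells, 0.68 for ATF4 and 1.34 for DDIT3, were the smallest of the 4 contrasts for each gene. ATF3, a stress-induced repressor, had changes of 4.54 (APO) and 2.999 (VER) in the C4-2B MDVR line and of 3.84 and 0.73 in CWR22Rv1 cells. Of 11 bZIP factors of the pathway, 8 rose more than 2-fold with each inhibitor in C4-2B MDVR cells, against 15.4% (APO) and 14.4% (VER) of all genes. In CWR22Rv1 cells 8 did with APO and 3 with VER, against 13.8% and 10.8%. ATF5 was the 1 that fell more than 2-fold with APO in CWR22Rv1 cells, from 61.0 to 30.4 FPKM, and its change of -1.002 lay between -1.16 and -0.89 under the alternatives tried.

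Upstream, 12 genes were counted, of the eIF2α kinases, eIF2, its exchange factor, its phosphatase and regulators of these. Their medians were 0.25 (APO) and -0.07 (VER) in the C4-2B MDVR line and 0.21 and -0.05 in the CWR22Rv1 line. With APO 1 rose and 1 fell more than 2-fold in C4-2B MDVR cells, where 15.4% of all genes rose and 13.3% fell. With VER 1 rose and 1 fell, against 14.4% and 13.3%. In CWR22Rv1 cells none did either way, where 13.8% (APO) and 10.8% (VER) of all genes rose and 16.8% and 8.92% fell. The fall with APO was of EIF2AK4, which encodes GCN2, from 20.3 to 9.60 FPKM (-1.07). EIF2AK4 changed by -0.58 with VER in that line and by 0.32 (APO) and 0.58 (VER) in CWR22Rv1 cells. EIF2AK3, which encodes PERK, was at 9.67 FPKM with DMSO, 15.97 after APO and 24.3 after VER in the C4-2B MDVR line and at 6.69, 12.9 and 10.2 FPKM in CWR22Rv1 cells. EIF2S1, which encodes eIF2α itself, had log2 fold changes of -0.75 and -1.05 in C4-2B MDVR cells and of 0.47 and -0.39 in CWR22Rv1 cells.

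Beyond the 10 genes, 47 other listed targets of ATF4 and CHOP were counted. This list too was drawn up with earlier results of these data known, so it is not independent evidence. In C4-2B MDVR cells 36 of 47 rose more than 2-fold with APO and 31 with VER, against 15.4% and 14.4% of all genes. In CWR22Rv1 cells 32 and 15 did, against 13.8% and 10.8%. None of the 47 fell by that much in any of the 4 contrasts with DMSO, where 8.92% to 16.8% of all genes did. The medians of the 47 genes, 1.60, 1.33, 1.39 and 0.72, were lower than those of the 10 genes in each contrast. GDF15, a secreted stress hormone, had the highest median change of them over the 4 contrasts, at 10.0 FPKM with DMSO, 226.5 after APO and 753 after VER in the C4-2B MDVR line and at 41.0, 1401 and 970.5 FPKM in CWR22Rv1 cells. FGF21, a fasting hormone, rose from 0.243 FPKM to 26.2 and 18.6 FPKM in C4-2B MDVR cells but reached only 0.475 FPKM in CWR22Rv1 cells. At the other end, the proline synthesis gene ALDH18A1 had log2 fold changes of -0.26 and -0.37 in C4-2B MDVR cells and of -0.64 and -0.67 in CWR22Rv1 cells, and the apoptosis gene BCL2L11 had one of -0.97 with APO in C4-2B MDVR cells. The hypoxia response also drives DDIT4, and its part in the changes of DDIT4 was not tested. Of 12 targets of hypoxia 1 rose more than 2-fold with each inhibitor in C4-2B MDVR cells, against 15.4% (APO) and 14.4% (VER) of all genes. In CWR22Rv1 cells 1 did with APO and 0 with VER, against 13.8% and 10.8%. Of the same 12, 2 and 3 fell by that much in C4-2B MDVR cells, where 13.3% of all genes did with either inhibitor. In CWR22Rv1 cells 1 and 1 fell, against 16.8% and 8.92%. VEGFA, also among the 47 listed targets of ATF4 and CHOP, was the 1 that rose in C4-2B MDVR cells. It was at 1.58 with APO and 1.01 with VER, the latter not past 2-fold with a pseudocount of 1. In CWR22Rv1 cells the rise with APO and the fall with VER were both of CA9, a carbonic anhydrase, which was at 0.134 FPKM with DMSO and 0.376 after APO and was listed at 0 after VER. These levels are near the pseudocount, and its change with APO lay between 0.28 and 1.42 under the alternatives tried.

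The nearest relatives of the 10 genes in sequence or function were counted too. Of 14 relatives, 13 passed the filter in C4-2B MDVR cells, where NUPR2 was listed at 0, and 14 in CWR22Rv1 cells. More than 2-fold, 2 rose and 2 fell with APO in C4-2B MDVR cells, where 15.4% of all genes rose and 13.3% fell. With VER 3 rose and 1 fell there, against 14.4% and 13.3%. PPP1R15B, CEBPG and SESN1 were counted in other lists as well. In CWR22Rv1 cells 9 of 14 rose more than 1.2-fold with APO, against 35.6% of all genes. More than 2-fold, 4 rose there, against 13.8%, and 2 fell, against 16.8%. With VER 1 rose and 2 fell, against 10.8% and 8.92%. Their medians were -0.13, -0.21, 0.48 and 0.05, and the last turned to -0.02 after rescaling to TPM.

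CEBPG, the C/EBP partner of ATF4, came closest to the 10 genes, at 1.56 with APO and 1.14 with VER in the C4-2B MDVR line and at 2.15 and 0.42 in CWR22Rv1 cells. CEBPA changed by -0.38 (APO) and -0.21 (VER) in the C4-2B MDVR line and by 1.04 and 0.33 in CWR22Rv1 cells, where it was at 4.92 FPKM with DMSO and 10.2 after APO. CEBPD changed by -0.12 and -0.69 in C4-2B MDVR cells and by 0.56 and -0.32 in CWR22Rv1 cells. PPP1R15B, the constitutive partner of PPP1R15A, changed by 1.03 and 0.25 in C4-2B MDVR cells and by 0.40 and 0.42 in CWR22Rv1 cells, and the value of 1.03 came to 0.86 with mitochondrial genes left out of the scaling. SESN1 was at 9.23 FPKM with DMSO, 14.7 after APO and 31.1 after VER in the C4-2B MDVR line and at 5.53, 17.8 and 23.7 FPKM in CWR22Rv1 cells, so its order of VER above APO was the reverse of that of SESN2. SESN3 was at 19.8, 34.3 and 51.1 FPKM in C4-2B MDVR cells and at 6.76, 18.2 and 9.55 FPKM in CWR22Rv1 cells, log2 fold changes of 0.79 and 1.37 in the former and of 1.42 and 0.49 in the latter. CHAC2, the constitutive relative of CHAC1, changed by -0.22 and -0.88 in C4-2B MDVR cells and by 0.05 and -0.60 in CWR22Rv1 cells.

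TRIB2 fell from 11.8 FPKM with DMSO to 5.48 with APO and 3.42 with VER in the C4-2B MDVR line, opposite to TRIB3, and was at or below 0.170 FPKM in CWR22Rv1 cells. DDIT4L was at 4.16, 1.68 and 2.11 FPKM in C4-2B MDVR cells and at 11.1, 13.0 and 19.6 FPKM in CWR22Rv1 cells. LRP8, which like VLDLR is a receptor of reelin, was at 9.25 FPKM with DMSO, 1.54 after APO and 3.94 after VER in the CWR22Rv1 line, log2 fold changes of -2.51 and -1.21, while VLDLR changed by 0.28 and 0.46 there. CBS, the enzyme before CTH in cysteine synthesis, changed by between -0.13 and 0.77 in the 4 contrasts.

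**Figure D5:**
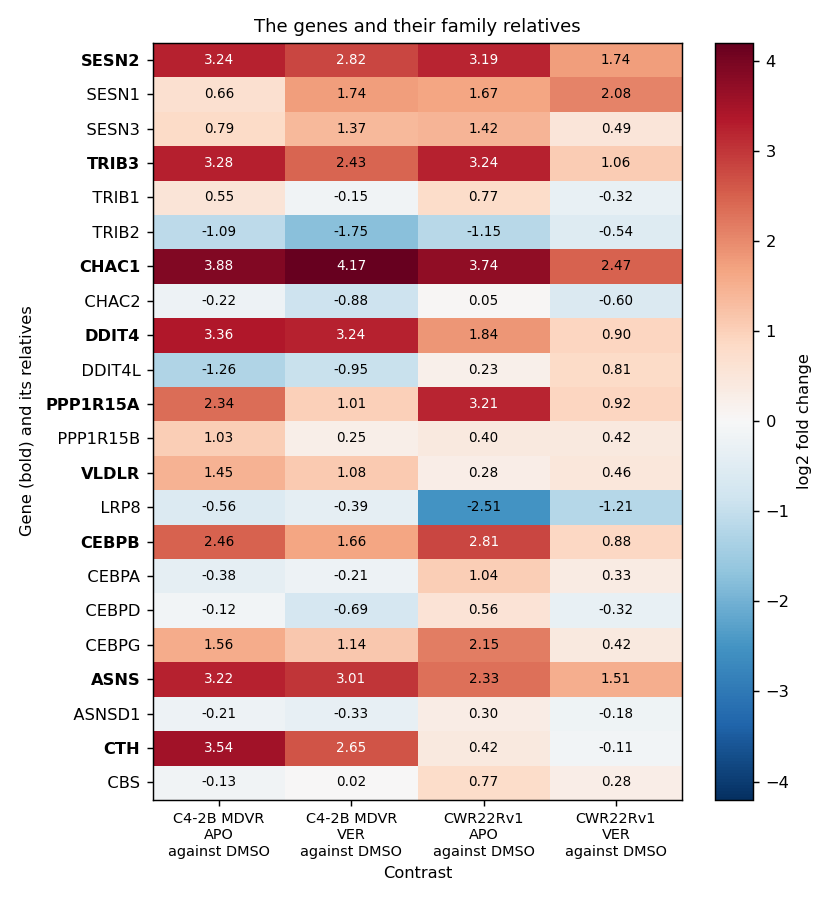
Log2 fold change against DMSO, written in each cell and coloured from blue (lower) to red (higher), for 9 of the genes (bold) with their relatives beneath them and 1 column per contrast. The bold rows are red in nearly all cells, with CTH at -0.11 for VER in CWR22Rv1 cells, whereas LRP8 reaches -2.51 with APO in CWR22Rv1 cells.

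To find genes with the most similar pattern, the distance of each gene's 4 log2 fold changes from the medians of the 10 genes was taken over genes that averaged 1 FPKM or more. The nearest 5 outside the list were NEBL at a distance of 0.593, BCAT1 at 0.664, PCK2 at 0.699, VLDLR-AS1 at 0.704 and GTPBP2 at 0.782. PCK2, the mitochondrial PEP carboxykinase, was at 39.5 FPKM with DMSO, 337 after APO and 252 after VER in the C4-2B MDVR line and at 47.9, 220 and 138 FPKM in CWR22Rv1 cells. BCAT1, a branched-chain aminotransferase, changed by 2.67 and 2.46 in C4-2B MDVR cells and by 2.65 and 1.21 in CWR22Rv1 cells. Among the 10 genes themselves ASNS (0.658), TRIB3 (0.693) and NUPR1 (0.710) lay nearest to the medians, and CHAC1 (2.43), CTH (2.48) and VLDLR (3.42) farthest. VLDLR-AS1 was near the pseudocount in CWR22Rv1 cells, and its change with APO there lay between 0.88 and 3.56 under the alternatives tried. VLDLR thus lay farther from the common pattern than its antisense gene.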

How the data were processed

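RNA of 2 prostate cancer cell lines was sequenced as paired ends, with 1 library for each of 6 conditions and groups taken from the sample titles. The labels describe a strand-marking kit with poly(A) selection, and the methods of the study another kit. The authors deposited 1 FPKM value per gene and library. The submitters' processing notes name HISAT, Cufflinks, Cuffnorm and GRCh38, with no versions. Identifiers were matched to GENCODE 29.

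Fold changes were computed from these FPKM values with a pseudocount of 0.1, with no test within a line, since each condition has 1 library. As an added alternative, limma 3.58.1 in R 4.3.3 (trend on, Benjamini-Hochberg adjustment) was fitted to log2(FPKM + 0.1) of the 6 libraries with cell line and treatment as terms. The members and lists were chosen with earlier results of these data known. The genes named are the 10 members, ATF4 and DDIT3, genes from the 3 highest and 3 lowest of each list by median change over the 4 contrasts, the relatives, and the 5 genes nearest to the members in pattern. Of these, those with the clearest roles are described. Some relatives are not reported here. LUM, KRT5, TP63 and PECAM1 are markers of other cells. TNFRSF10B and BBC3 are named because they stand in both the p53 and the ATF4-CHOP list, and EIF2AK4 because it fell more than 2-fold. XBP1, ATF6 and CREB3 are named because the list of bZIP factors holds them although they lie outside the route to CHOP. The alternatives were pseudocounts of 0.01 and 1, no filter, a filter at 1 FPKM, thresholds of 1.5-fold and 2-fold, and 3 rescalings. The functions were tested on simulated data. Python 3.11.15, numpy 2.4.6, pandas 2.3.3 and matplotlib 3.10.9 were used.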

Additional observations from a re-analysis of the deposited data

How the results depend on the processing

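With 1 library per condition no value within a line has an error, and the read depth of each library is not given. No paired analysis was possible by replicate number because each condition has 1 library. With the cell line as a block, chosen after seeing the data, 7 of the 10 genes passed with APO and 0 with VER. The 7 came to 0 without the mean-variance trend, 1 with a pseudocount of 0.01, 7 to 8 under the other pseudocount and scalings, and 0 to 4 with 1 library left out. The 0 with VER came to 4 after rescaling to TPM and stayed 0 under the other settings. Of 490 values of the 10 genes under the alternatives, 480 kept their side of 1.2-fold, 6 fell below it, 4 passed it and 0 values past it reversed. The 32 medians of the 10 genes kept their direction and their side of 1.2-fold. Of 93 counts of the 10 genes, 90 stayed within 1.5 times. With VER in CWR22Rv1 cells the 9 genes past 1.2-fold came to 5 at a threshold of 2-fold. Over the 7 genes the study does not display, an alternative chosen after seeing the data, 5 (APO) and 3 (VER) rose more than 2-fold in CWR22Rv1 cells, which follows from the smaller set. The number past 2-fold with VER in C4-2B MDVR cells lay between 8 and 10, since PPP1R15A and VLDLR were just past it. Among genes outside the 10, 1312 of 1348 values kept their side of 1.2-fold, and 0 values past it reversed. Of 168 list medians, 158 kept their side of it, 6 fell below 1.2-fold and 4 passed it, and of 168 list counts 158 stayed within 1.5 times and 10 moved. After rescaling to TPM, 11195 genes above 1 FPKM in every library had a median change of -0.15 (APO in C4-2B MDVR), 0.14 (APO in CWR22Rv1) and -0.25 (VER against APO in CWR22Rv1). Without mitochondrial genes the first 2 were -0.16 and -0.13.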
